A study of Mus musculus with 13 samples.

Results

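The genes described here encode 10 transcription factors of stratified epithelium, the layered type of epithelium that forms the epidermis. They were Trp63, the grainyhead-like genes Grhl1, Grhl2 and Grhl3, the Ovo-like genes Ovol1 and Ovol2, the zinc finger gene Zfp750, the homeobox gene Pitx1 and the Krüppel-like genes Klf4 and Klf5. They were taken by symbol from a table of 23845 genes, and all 10 had enough reads to be among the 13058 genes tested. The choice was made with the difference between the groups known, so that difference is described for these genes and is given without a p-value.

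Expression was measured by RNA-seq in 13 cell lines grown from mammary tumours of FVBN/J mice, in a study of the c-Jun N-terminal kinase (JNK) pathway in HER2-driven breast cancer. The labels call 6 of them wild type (WT) and 7 JNK knockout, with 1 library each. All lines were started on collagen I in 2% serum and then kept on plain dishes with 10% serum, 20 ng/ml EGF and 10 µg/ml insulin. The labels do not give the age of the mice, the HER2 allele, the JNK alleles removed, the driver of the deletion, or whether lines share an animal. WT replicates 4 and 5 carry titles with a common number. P-values therefore measure the spread between these lines, and since titles begin with other letters in each group, a difference of colony or handling and the genotype cannot be told apart.

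Total counts ran from 38298600 to 46689800 per line. The kinase gene Mapk8 averaged 29.8 ± 5.38 CPM (SD, n = 6; CPM are counts scaled to a common library size) in WT lines and 5.76 ± 1.32 CPM (n = 7) in knockout lines, and Mapk9 60.0 ± 6.59 and 19.3 ± 5.11 CPM. All knockout lines were thus below all WT lines in both genes. Markers of the luminal mammary epithelium, 11 genes with 10 tested, summed to 6287 to 8350 TPM, a measure scaled for transcript length, in WT lines and 1346 to 4144 TPM in knockout lines. Of the luminal genes 2 were called lower (edgeR adjusted p under 0.05). Markers of myoepithelium (8 genes with Krt5 and Krt14 among them, 7 tested) summed to 62.9 to 291 TPM in WT and 533 to 19960 TPM in knockout lines. Krt5 and Krt14 were the only 2 of these called higher. They held 9482 and 8728 TPM in knockout replicate 2, which had the highest sum, and 165 and 357 TPM in replicate 4. Without replicate 2 the highest sum was 4245 TPM. Markers of the differentiated epidermis (7 of 8 in the table, 4 tested, Krt2 at 0) summed to 2.69 to 10.6 TPM in WT and 8.50 to 174 TPM in knockout lines. Fibroblast markers (8 genes, 7 tested) summed to 4.79 to 162 TPM in WT and 0.98 to 16.7 TPM in knockout lines. The 6 endothelial markers reached at most 1.14 TPM in any line. Immune markers (6 of 7 in the table, 2 tested) lay between 3.57 and 33.5 TPM. Hair follicle markers (7 genes, 1 tested, Krt35 at 0) lay between 0.34 and 3.24 TPM, and melanocyte and Schwann cell markers (7 genes, 4 tested, Tyr at 0) at no more than 357 TPM in WT and 11.4 TPM in knockout lines. Of the markers other than luminal and myoepithelial ones, 2 fibroblast genes were called lower. In addition 1 gene of the differentiated epidermis and 1 of the hair follicle were called higher. Over all tested genes 4.33% were called higher and 4.17% lower. The part of these cell types in the results below was not tested, and in bulk RNA fewer cells of a type and less RNA per cell cannot be told apart. Knockout replicate 2 stood apart from its group. It had 40.8 CPM of the epithelial adhesion gene Epcam and 92.3 CPM of Cdh1, the E-cadherin gene, against at least 266 and 311 CPM in the other knockout lines. It also had 4042 CPM of Vim, the vimentin gene of mesenchymal cells, and 80.0 CPM of the repressor gene Zeb1, against at most 704 and 13.1 CPM.

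As background, p63, the product of Trp63, keeps the basal layer of stratified epithelia and of the mammary gland in its state and is needed for the formation of skin. Grainyhead-like factors control junction and barrier genes, and Ovo-like factors are zinc finger repressors that hold epithelial cells back from a mesenchymal state. ZNF750, the human counterpart of Zfp750, acts below p63 in human keratinocytes and together with KLF4 promotes late differentiation. KLF5 is linked to proliferating basal cells, and Pitx1 is best known for specifying the hindlimb and for its expression in the oral epithelium.

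In the fit over all genes 3 of the 10 members were called higher in knockout lines (Trp63, Grhl3 and Pitx1) and 0 lower, where 8.51% of all tested genes were called, 4.33% higher and 4.17% lower (edgeR quasi-likelihood test, adjusted p under 0.05). Every knockout line lay above every WT line for 2 of the 10, Grhl3 and Pitx1, against 2.08% of all tested genes, and below for 0, against 1.97%. The median log2 fold change, knockout minus WT, was 1.24 over the members and 0.01 over all tested genes. The members were chosen on this contrast, so these counts describe them and are no evidence about them. Upstream windows were given in the promoter table of RefSeq (GRCm38.p6) for 4 of the 10 genes, Grhl1, Grhl3, Klf4 and Ovol2. The 250 bases before the annotated start are shown for Grhl3, whose groups did not overlap (chr4:135573633-135573882, minus strand), and for Klf4 on the same chromosome, whose groups did (chr4:55532476-55532725, minus strand). Capitals mark matches to CCNCNCCC, a simple form of the GC-rich box that Krüppel-like factors bind, on either strand.

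Grhl3: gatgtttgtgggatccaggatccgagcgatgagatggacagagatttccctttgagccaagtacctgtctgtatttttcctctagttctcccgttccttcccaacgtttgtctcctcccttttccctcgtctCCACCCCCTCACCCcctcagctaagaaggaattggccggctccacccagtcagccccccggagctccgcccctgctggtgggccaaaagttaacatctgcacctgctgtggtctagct
Klf4: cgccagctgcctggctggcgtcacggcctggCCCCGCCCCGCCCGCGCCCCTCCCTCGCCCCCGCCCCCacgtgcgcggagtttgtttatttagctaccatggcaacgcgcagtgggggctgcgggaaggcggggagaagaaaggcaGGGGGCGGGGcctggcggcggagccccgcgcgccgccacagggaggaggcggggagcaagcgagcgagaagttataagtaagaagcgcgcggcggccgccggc

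The Grhl3 window held 2 overlapping matches, between 118 and 105 bases before the start, and the Klf4 window held 9, several of them overlapping. Among 32851 such windows, 45.9% held at least 1 match, as did 3 of the 5 windows of these 4 genes. In those 5 windows no match was found to the AP-1 motif TGANTCA (6.75% of all windows), the grainyhead motif AACNGGTT (1.79%), the Ovo motif CCGTTA (2.18%), the Pitx motif TAATCC (6.25%) or the p53-family core, CATG followed after 6 bases by CATG (0.49%). Matches and their absence describe letters in these windows only.

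**Figure D1:**
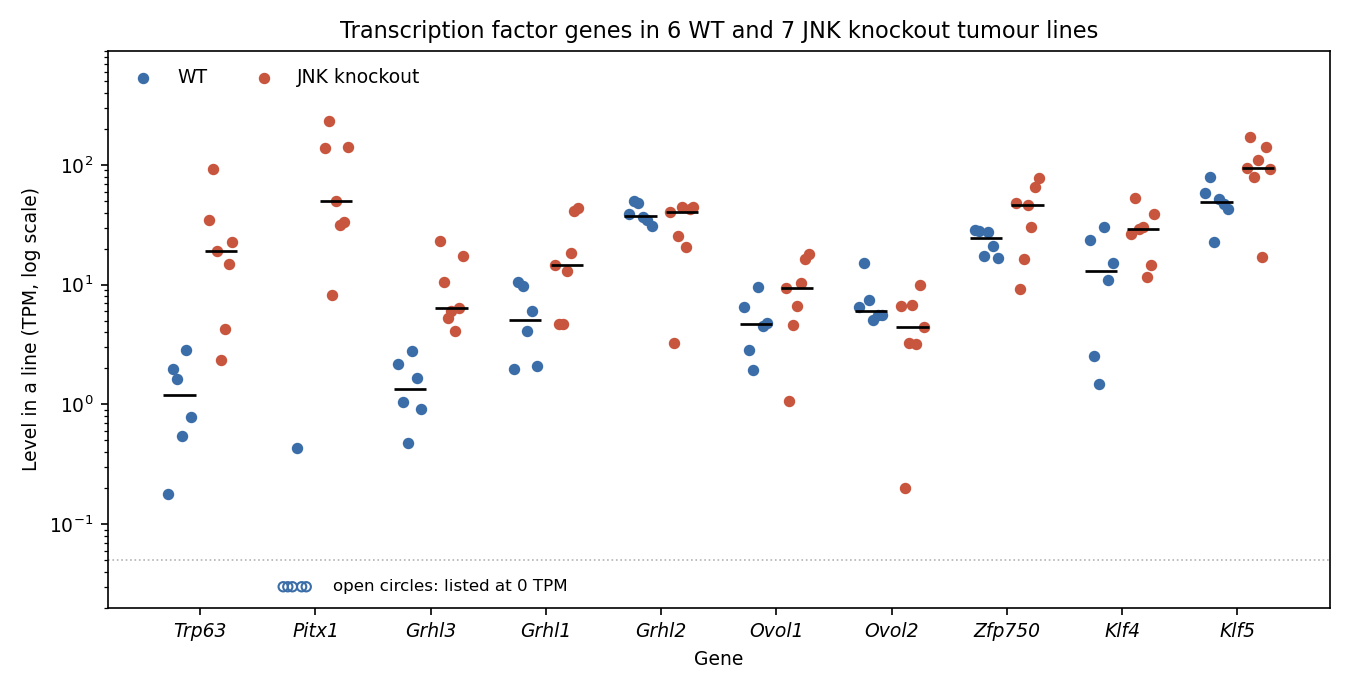
Level of each member in TPM (log scale) in the 6 WT lines (blue) and the 7 JNK knockout lines (red), 1 point per line, with the group median as a bar and open circles for lines listed at 0. Pitx1 was listed at 0 TPM in all WT lines but replicate 4 (0.43 TPM) and at 8.23 to 232 TPM in knockout lines, and Grhl3 did not overlap either, while Grhl2 was below every WT line in knockout replicates 2, 5 and 3 (3.25, 20.7 and 25.4 TPM) and inside the WT range in the other 4.

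Trp63 (chromosome 16, 25683763 to 25892088) was low in WT lines, with a lowest level of 0.331 CPM, a median of 2.90 CPM and a highest level of 6.03 CPM. In knockout lines the lowest level was 5.61 CPM, the median 43.8 CPM and the highest 243 CPM. Knockout replicate 4 held the lowest of these, inside the WT range, and the other 6 lines were above every WT line. Knockout replicate 2 was highest by far, followed by replicate 1 at 90.4 CPM and replicate 7 at 62.7 CPM. The means were 3.02 ± 2.24 CPM (SD, n = 6) and 70.6 ± 81.2 CPM (SD, n = 7), and the log2 fold change was 4.55 (SE 0.90). It was 3.79 without knockout replicate 2, the line with most Trp63. Trp63 has several transcripts, among them forms with and without the transactivation domain, and the gene counts sum them.

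Pitx1 (chromosome 13, 55825044 to 55836190) was all but absent from WT lines. No read was counted in 5 of the 6, and 24 reads in WT replicate 4. In knockout lines the level ran from 11.4 CPM in replicate 3 over a median of 67.9 CPM to 344 CPM in replicate 2, and replicates 1 and 7 were also high at 200.7 and 208 CPM. No knockout line came near the WT lines. The fitted log2 fold change of 10.48 (SE 1.304) rests on those 24 reads. Set against the 5 WT lines without a read alone, the pooled knockout group (133 CPM) was at least 9458-fold higher. This used a floor of 3 reads over those WT lines that covers counting error only. That value leaves out the WT line that had reads and is no bound for the whole WT group or for a single knockout line.

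Among the 3 grainyhead-like genes, 1 was called. This was Grhl3 (chromosome 4, 135541887 to 135573632), a factor of the epidermal barrier. It was between 0.754 and 4.01 CPM in WT lines, with a median of 1.93 CPM, and between 8.40 and 38.7 CPM in knockout lines, with a median of 10.1 CPM. Knockout replicates 1, 7 and 2 were high, at 38.7, 29.4 and 17.9 CPM, and the other 4 lay together between 8.40 and 10.1 CPM. Its log2 fold change was 3.02 (SE 0.51), and 3.01 without knockout replicate 2. Grhl1 (chromosome 12, 24572232 to 24617391), which acts on desmosomal cadherin genes in the skin, was between 3.49 and 19.7 CPM in WT lines, with a median of 9.14 CPM, and between 9.50 and 94.3 CPM in knockout lines, with a median of 30.9 CPM. Its groups overlapped, because knockout replicates 2 and 3 were at 10.1 and 9.50 CPM, within the WT range, while the other 5 were above every WT line. The log2 fold change was 2.00 (SE 0.62) and was not called, though it was called without knockout replicate 2 (2.17) and without knockout replicate 3.

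Grhl2 (chromosome 15, 37232821 to 37363569), which maintains epithelial junction genes such as that for E-cadherin, was between 87.8 and 141 CPM in WT lines, with a median of 98.4 CPM. In knockout lines the median was 124 CPM and the highest level 141 CPM, and the lowest was 10.2 CPM in replicate 2. Knockout replicate 3 came next at 74.5 CPM, also under the WT lines, and the remaining 5 lay between 90.3 and 141 CPM. In TPM knockout replicate 5 was under the WT lines too, at 20.7 against at least 30.9 TPM. The log2 fold change was -0.13 (SE 0.40) and was 0.07, of the opposite sign, without knockout replicate 2. The low level in that line stood beside its low Epcam and Cdh1 and its high Vim and Zeb1, and the part of these in the Grhl2 value was not tested.

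The Ovo-like genes were not called in either direction. Ovol1 (chromosome 19, 5549137 to 5560575), which stops the growth of keratinocytes as they differentiate, was between 3.23 and 14.4 CPM in WT lines, with a median of 7.23 CPM, and between 1.89 and 32.2 CPM in knockout lines, with a median of 16.5 CPM. Knockout replicate 2 was the lowest of all lines and 4 knockout lines were above every WT line, so the groups overlapped at both ends. The log2 fold change was 1.18 (SE 0.54) and 1.38 without knockout replicate 2. Ovol2 (chromosome 2, 144305175 to 144332080), which holds Zeb1 down in mammary epithelium, was between 3.54 and 9.99 CPM in WT lines, with a median of 4.34 CPM. In knockout lines it lay between 0.157 and 7.49 CPM, with a median of 3.66 CPM, and 3 of them were below every WT line. Knockout replicate 2 had 6 reads of Ovol2, and the next lowest, replicate 3, 100 reads. The log2 fold change was -0.44 (SE 0.56).

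Zfp750 (chromosome 11, 121510976 to 121519342) was between 30.4 and 48.3 CPM in WT lines, with a median of 41.0 CPM, and between 18.5 and 156 CPM in knockout lines, with a median of 85.1 CPM. The WT lines were close together and the knockout lines were spread, with replicates 2 and 3 at 18.5 and 30.6 CPM and 5 lines above every WT line. The log2 fold change was 1.08 (SE 0.40), not called with all lines and called without knockout replicate 2 (1.25). Klf4 (chromosome 4, 55527137 to 55532475), a factor of differentiating suprabasal cells, was between 2.59 and 47.4 CPM in WT lines, with a median of 21.3 CPM, and between 25.3 and 98.9 CPM in knockout lines, with a median of 51.0 CPM. WT replicates 2 and 3 had little of it, at 4.05 and 2.59 CPM, and the groups overlapped in the middle. Klf5 (chromosome 14, 99298691 to 99313412) was between 21.1 and 67.6 CPM in WT lines, with a median of 41.5 CPM, and between 23.8 and 170 CPM in knockout lines, with a median of 92.4 CPM. In CPM only knockout replicate 5 was inside the WT range, and the other 6 were above every WT line. In TPM replicate 5 was below every WT line (17.2 against at least 22.6 TPM). Knockout replicate 3 was inside the WT range there, at 78.6 TPM against up to 79.9 TPM. The log2 fold changes were 1.29 (SE 0.58) for Klf4 and 1.18 (SE 0.36) for Klf5, and neither was called. Klf5 was called without WT replicate 2 or without knockout replicate 5.

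**Figure D2:**
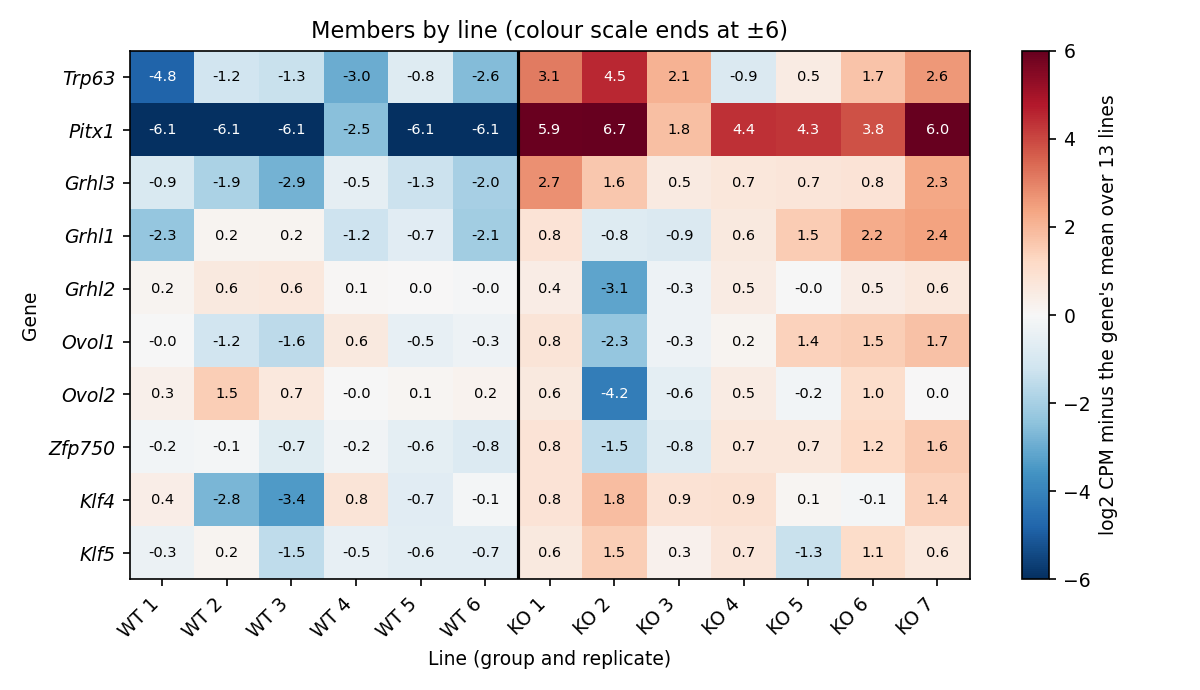
Log2 CPM of each member in each line minus the mean of that gene over the 13 lines, with values printed in the cells, red above and blue below the mean, and a line between WT and knockout (KO) lines. Knockout replicate 2 was highest of its group in Trp63, Pitx1, Klf4 and Klf5 and lowest in Grhl2, Ovol1, Ovol2 and Zfp750.

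The order of the knockout lines thus differed from member to member. Knockout replicate 2 was the highest of its group for 4 members and the lowest for 4 others. Knockout replicate 7 was the highest for a different 4 (Grhl1, Grhl2, Ovol1 and Zfp750) and the lowest for 0. Knockout replicate 3 was the lowest for Grhl1, Grhl3 and Pitx1. Among WT lines replicate 3 was the lowest for Klf4, Klf5, Grhl3 and Ovol1, and replicate 4 was the highest for Klf4, Grhl3, Ovol1 and Pitx1.

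Levels of different genes were compared in TPM, which is scaled for transcript length. In WT lines Klf5 was the most abundant (50.5 ± 18.9 TPM, SD, n = 6), before Grhl2 (40.0 ± 7.67), Zfp750 (23.3 ± 5.52) and Klf4 (13.9 ± 11.4). Then came Ovol2 (7.57 ± 3.78), Grhl1 (5.77 ± 3.74) and Ovol1 (5.04 ± 2.76), and last Grhl3 (1.51 ± 0.871), Trp63 (1.33 ± 1.00) and Pitx1 (0.0717 ± 0.176). In knockout lines Klf5 was again first (100.5 ± 48.4 TPM, SD, n = 7), but Pitx1 was second (90.7 ± 81.7). Zfp750 (41.9 ± 25.0), Grhl2 (31.7 ± 15.8), Klf4 (29.1 ± 14.01), Trp63 (27.1 ± 30.8) and Grhl1 (20.0 ± 16.04) followed, and Grhl3 (10.4 ± 7.22), Ovol1 (9.51 ± 6.16) and Ovol2 (4.89 ± 3.14) were last. Neighbours in the knockout order all differed by less than the larger of their SDs. In the WT order the steps from Grhl2 to Zfp750, from Ovol1 to Grhl3 and from Trp63 to Pitx1 were wider than that, and the others were not.

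How the members vary with each other among the knockout lines was asked next, since this does not use the difference between groups. Trp63 was set against the other 9 by Pearson's r and Spearman's rho of log2 CPM over the 7 lines, with exact permutation tests, two-sided, and Benjamini-Hochberg adjustment over the 9 pairs. None passed, and 0 pairs had an unadjusted p under 0.05 by either measure. The largest positive r was with Grhl3 (0.61, rho 0.68, exact permutation p = 0.15 and 0.11, adjusted p = 0.35 and 0.75). It was 0.78 without knockout replicates 2 and 4, the lines farthest from the median of Trp63. The largest negative r was with Ovol2 (-0.63, rho -0.32, exact permutation p = 0.16 and 0.50, adjusted p = 0.35 and 0.76), and with Grhl2 it was -0.62 (rho -0.39, exact permutation p = 0.19 and 0.40, adjusted p = 0.35 and 0.76). Both rest on knockout replicate 2, since without it they were -0.05 and 0.06.

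The 36 pairs among the other 9 members were examined after the values by line had been seen. By Pearson's r 4 of them passed (exact permutation test, adjusted over 36 pairs), all among Grhl1, Grhl2, Ovol1 and Zfp750, and by Spearman's rho 0 did. Unadjusted, 9 pairs by r and 5 by rho were under 0.05. Grhl1 and Ovol1 had an r of 0.89 (adjusted p = 0.019) and a rho of 0.96 (adjusted p = 0.10), Ovol1 and Zfp750 0.94 (adjusted p = 0.019) and 0.89 (adjusted p = 0.15), in exact permutation tests. Grhl1 and Zfp750 had an r of 0.93 (adjusted p = 0.027) and a rho of 0.86 (adjusted p = 0.21), and Grhl2 and Zfp750 an r of 0.87 (adjusted p = 0.019) and a rho of 0.89 (adjusted p = 0.15), by the same exact permutation tests. The highest r of all, 0.98 for Grhl2 with Ovol2, did not pass (exact permutation p = 0.0087, adjusted p = 0.063, rho 0.68) and was 0.72 without knockout replicate 2. The unadjusted p of r for these pairs, in that order, were 0.0012, 0.0016, 0.0030 and 0.0016 (exact permutation). Without the 2 lines farthest from the median of the first gene, knockout replicates 2 and 3, r was 0.94, 0.70, 0.85 and 0.64. Without knockout replicate 2 alone it was 0.97, 0.86, 0.94 and 0.88. With any 1 line left out 0 pairs passed, though r of the 4 pairs was not below 0.86 (0.858 for Ovol1 and Zfp750). Over 6 lines the smallest possible exact permutation p is 0.0014. A lone pair at that value has an adjusted p of 0.05 over 36 pairs and cannot pass, whatever its r. Several pairs at that value together could pass, so this limit does not by itself account for the loss of all 4 calls. The adjusted p of the 4 pairs then ran from 0.05 to 0.11 (exact permutation), and their calls needed all lines.

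**Figure D3:**
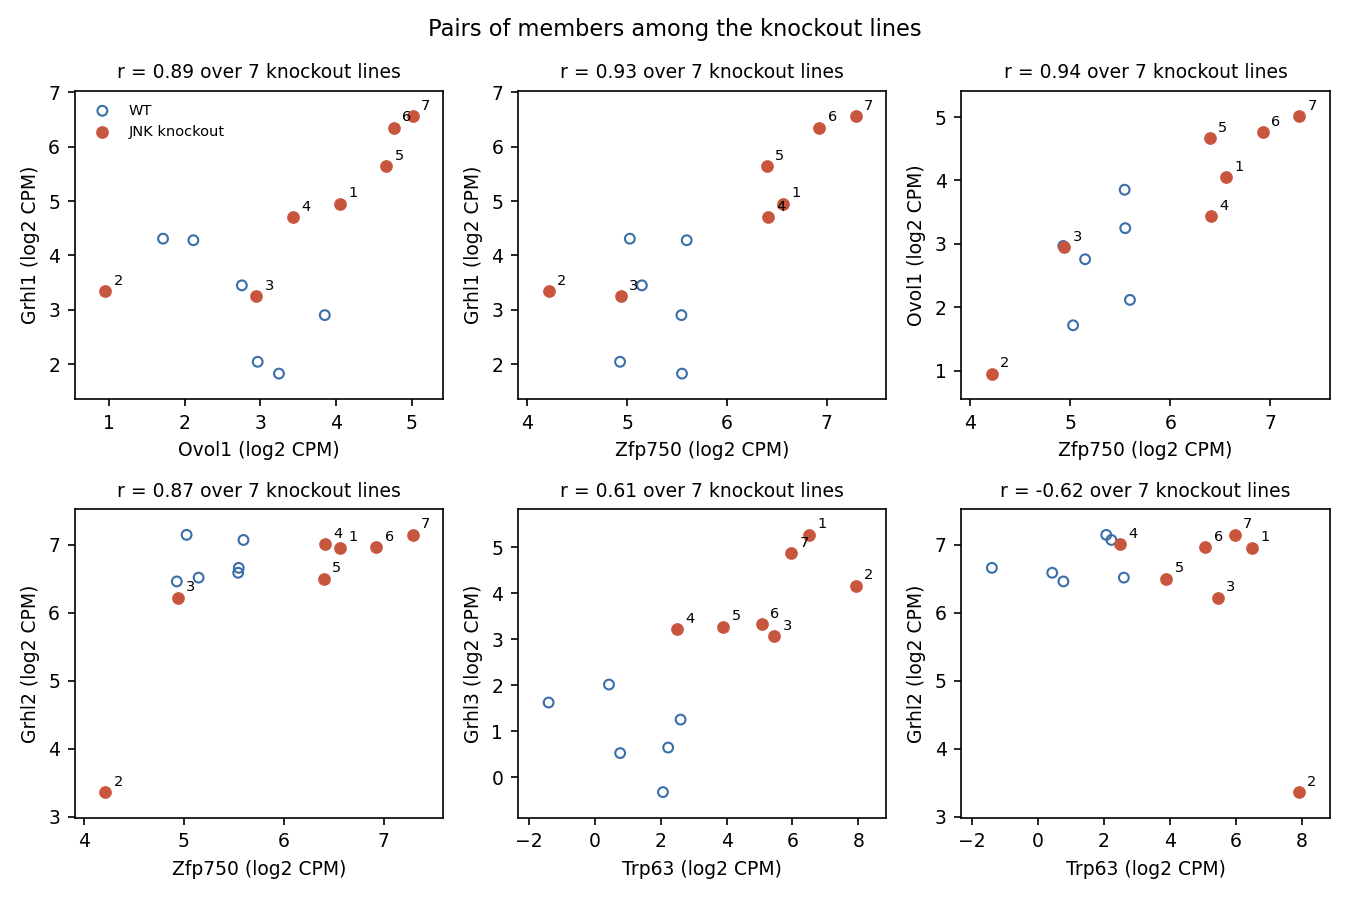
Log2 CPM of pairs of members in knockout lines (red, numbered by replicate) and WT lines (blue circles), with r over the 7 knockout lines above each panel. Grhl1, Ovol1 and Zfp750 run together from knockout replicates 2 and 3 to replicates 6 and 7, and the negative r of Trp63 with Grhl2 comes from knockout replicate 2 alone.

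Over the 6 WT lines the same 4 pairs had r of -0.74, 0.35, -0.0044 and 0.16, none of which passed (exact permutation, adjusted p = 0.24, 0.62, 0.99 and 0.73 over 28 pairs without Pitx1). Whether these differ from the knockout values was not tested. Of those 28 WT pairs 1 passed, Klf4 with Ovol1 (r = 0.97, rho = 1, exact permutation p = 0.0014 and 0.0028, adjusted p = 0.039 and 0.078). Its r was 0.94 without WT replicates 2 and 3, and -0.65 among the knockout lines. For rho its exact permutation p of 0.0028 is the smallest that 6 lines allow, so a lone pair could not pass by rho. Trp63 passed with none of the 8 members compared with it in WT lines, where Grhl1 had the only unadjusted p under 0.05 (r = 0.83, rho = 0.71, exact permutation p = 0.046 and 0.14, adjusted p = 0.37 and 0.36).

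Over the same 7 knockout lines and 10494 genes with a mean of at least 5 CPM there, the genes whose log2 CPM was most like Trp63 were Net1 (r = 0.98), Neu3 (0.97), Lima1 (0.97), Trim12c (0.97) and Robo1 (0.96). Net1 encodes an exchange factor of the GTPase RhoA, Neu3 a sialidase, Lima1 an actin-binding protein and Robo1 a receptor for Slit ligands. Without knockout replicate 2 these values stayed between 0.95 and 0.97. They are the top of a ranking and carry no test. Of these genes Net1 was also higher in knockout lines (134 ± 56.8 CPM against 46.7 ± 7.25 CPM in WT lines, a log2 fold change of 1.52, SE 0.27, edgeR adjusted p = 0.0076). So was Neu3 (1.54, SE 0.38, edgeR adjusted p = 0.025), a call lost without WT replicate 6 or without knockout replicate 1, where adjusted p reached 0.053. The floor of 5 CPM used the knockout group alone, and Neu3 passed it there with a mean of 10.9 CPM. Its WT mean of 3.72 CPM was under that floor. The floor thus favoured a gene higher in the knockout group, and the call and p-value of Neu3 are descriptions only. Lima1, Trim12c and Robo1 were not called.

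The genes most like Grhl2 were Galnt3, Rbm47, Grb7, Sorbs2 and Acp5, with r from 0.99 to 1.00 (0.989 for Acp5 and 0.998 for Galnt3). Galnt3 encodes an enzyme that starts O-linked glycosylation, Rbm47 an RNA-binding protein and Grb7 an adaptor of receptor tyrosine kinases. Knockout replicate 2 was the lowest knockout line in each of them, at 9.46, 1.70, 3.85, 10.1 and 1.96 CPM. Without it r was 0.96, 0.95, 0.94, 0.85 and 0.83. With all lines none of the 5 was called between the groups, and Sorbs2 was called lower without knockout replicate 2 (log2 fold change -1.01, edgeR adjusted p = 0.028, against -1.22 and 0.15 with it).

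The genes related to the members by family or by known function were taken from lists and tested in the fit over all genes. The lists were drawn up with earlier results of these data known, so their counts are descriptions, to be read beside the 4.33% of all tested genes called higher and the 4.17% called lower. Genes with almost no reads in 1 group passed the read filter through the other group alone. Trp73, Klf12, Bcl11b, Krt5, Col17a1, Foxc2 and Dmkn were among these, and their calls and p-values are descriptions too. Of 23 relatives of the same families 20 were tested, and 1 rose and 2 fell, with a median log2 fold change of 0.10 against 0.01 over all tested genes. That median was -0.04 without knockout replicate 6. Trp73, the p63 relative, rose from 4 reads over all WT lines to 1038 reads over the knockout lines (0.0155 ± 0.0270 CPM, n = 6, and 3.64 ± 3.58 CPM, n = 7, edgeR adjusted p = 0.0045). Every knockout line was above every WT line, from 0.162 CPM in knockout replicate 5 to 9.98 CPM in replicate 3, while Trp53 was not called. When lines were dropped singly, Trp73 fell under the read filter in 6 of 13 fits, including the one lacking knockout replicate 2. In the other 7 it was called, and its log2 fold change went from 7.62 to 8.86 without WT replicate 4. The Krüppel-like genes Klf11 and Klf12 fell, while Klf4 and Klf5 were not called. Klf11 went from 21.4 ± 4.05 CPM in WT to 9.96 ± 2.57 CPM in the knockout group, 2.14-fold lower (edgeR adjusted p = 0.0092). Klf12 went from 2.21 ± 0.839 to 0.156 ± 0.206 CPM (edgeR adjusted p = 0.021). All 7 knockout lines were below every WT line for both, and the log2 fold change of Klf12 was -3.79, or -4.62 without knockout replicate 3.

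Of 41 other transcription factors of stratified epithelium 35 were tested, and 2 rose and 1 fell, with a median log2 fold change of 0.39. Dropping knockout replicate 2 gave -0.04, and dropping WT replicate 2 gave 0.91. Bcl11b, a factor of skin and of mammary basal cells, rose from 0.141 ± 0.236 to 4.17 ± 5.16 CPM (log2 fold change 4.89, SE 1.14, edgeR adjusted p = 0.021). Dropping knockout replicate 2 gave 4.05 and dropping WT replicate 3 gave 6.44. Cebpa, which takes part in the differentiation of keratinocytes, rose from 4.70 ± 3.48 to 30.3 ± 25.8 CPM (edgeR adjusted p = 0.038), with 4 knockout lines above every WT line. With lines dropped singly the call held in 4 of 13 fits. It was lost without WT replicate 1, 3, 4, 5 or 6 and without knockout replicate 1, 2, 5 or 7, with adjusted p up to 0.078. Rora, a nuclear receptor gene, fell from 21.8 ± 19.0 to 5.03 ± 2.30 CPM (edgeR adjusted p = 0.024), and all 7 knockout lines were below every WT line. Its call was lost without WT replicate 3 or without knockout replicate 1, with adjusted p up to 0.053.

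Of 29 known targets of p63, 27 were tested, and 9 rose and 1 fell, with a median log2 fold change of 1.07. The median was 0.36 without knockout replicate 2, which also had the most Trp63, and 7 then rose. Every knockout line was above every WT line for 5 of the 27, against 2.08% of all tested genes. Trim29, a gene of squamous epithelium, rose from 1.52 ± 0.563 to 45.2 ± 33.6 CPM (log2 fold change 4.89, SE 0.59, edgeR adjusted p = 0.00091). The basal keratin genes Krt5 and Krt14 and Col17a1, a hemidesmosome collagen gene, were the others with the lowest p, and knockout replicate 2 was the highest line in all 3. Krt5 had a log2 fold change of 12.11 (10.58 without that line), Krt14 of 4.65 (4.09) and Col17a1 of 10.66 (8.99), with edgeR adjusted p of 0.0020, 0.0026 and 0.0026. Knockout replicate 4, the lowest of its group in Trp63, held 197 CPM of Krt5 and 313 CPM of Krt14, against at most 1.01 and 232 CPM in WT lines. Dsc3, Perp, Lama3, Cdh3 and Jag2 rose as well, and Fermt1, which encodes kindlin-1, fell.

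**Figure D4:**
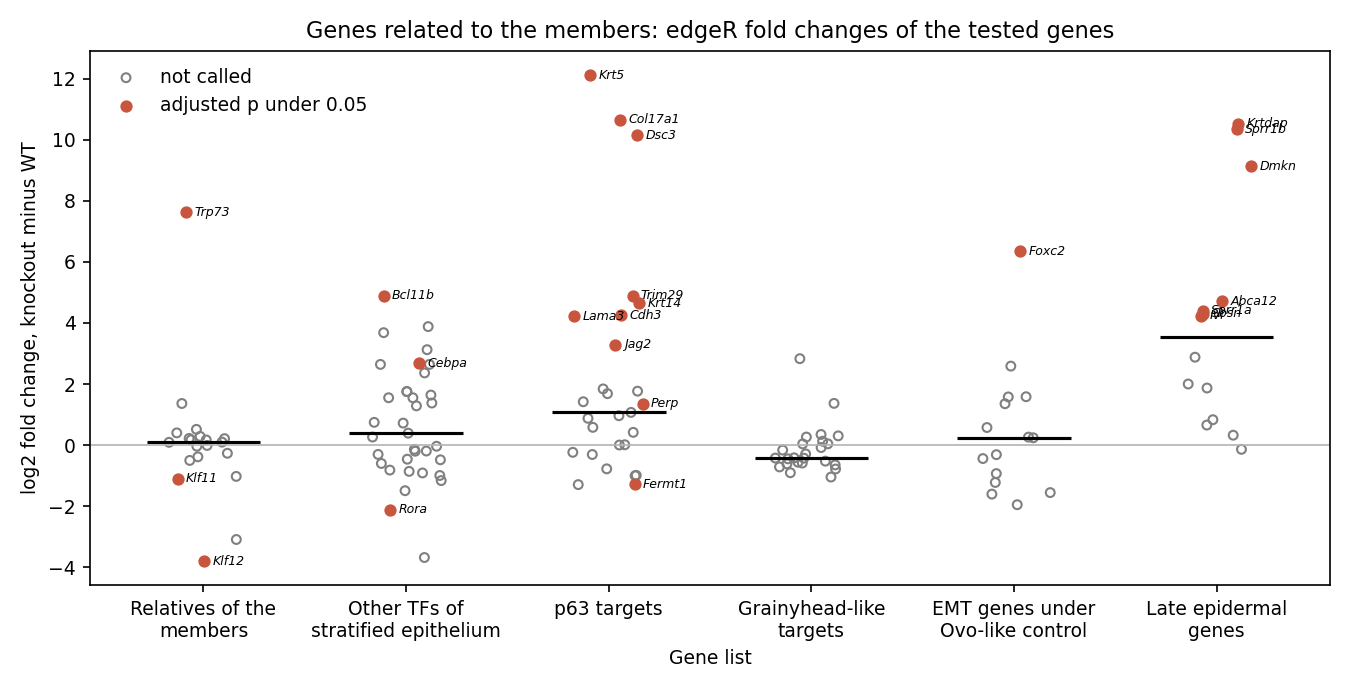
Log2 fold change, knockout minus WT, of the tested genes of 6 lists related to the members, 1 point per gene, filled and named where edgeR's adjusted p was under 0.05, with the list median as a bar. Called genes were most frequent among p63 targets (9 higher and 1 lower of 27) and late epidermal genes (7 higher of 14), and 0 of 24 grainyhead-like targets was called, beside 8.51% of all tested genes. The lists were chosen with earlier results of these data known.

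Of 24 junction and barrier genes that grainyhead-like factors act on, all were tested and 0 were called by edgeR. Of these 2 had an unadjusted p under 0.05, Tgm1 and Epcam, and 1 was called by DESeq2 and 0 by limma-voom. The median log2 fold change was -0.42, or -0.21 without knockout replicate 2, and 8 of the 24 were positive. Tgm1, the transglutaminase of the cornified envelope, averaged 25.4 ± 30.3 CPM in knockout and 3.56 ± 2.69 CPM in WT lines, led by knockout replicate 1 at 91.2 CPM, and just missed the threshold (edgeR adjusted p = 0.0503). It was called without knockout replicate 2 (edgeR adjusted p = 0.021) or 6 (edgeR adjusted p = 0.041). Epcam averaged 415 ± 201 CPM in knockout and 855 ± 396 CPM in WT lines (edgeR adjusted p = 0.17). Of 15 mesenchymal genes of the kind that Ovo-like factors hold down, 1 rose and 0 fell. This was Foxc2, up from 0.132 ± 0.134 to 10.7 ± 19.6 CPM (log2 fold change 6.34, SE 1.48, edgeR adjusted p = 0.021), with 53.5 CPM in knockout replicate 2 and 0.0433 CPM in knockout replicate 6. Without knockout replicate 2 its log2 fold change was 4.76, and without WT replicate 3 it was 6.98. The median of this list was 0.24 with all lines and negative without knockout replicate 2 (-0.61), knockout replicate 1 (-0.090) or WT replicate 2 (-0.011).

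Of 23 late epidermal genes, among them targets of ZNF750 and KLF4, 19 were in the table and 14 were tested, and 7 rose and 0 fell, with a median log2 fold change of 3.56. Dropping knockout replicate 6 lowered it to 2.13, and dropping knockout replicate 7 to 2.44. Krtdap and Sprr1b, genes of differentiating keratinocytes, had 0 reads in the WT lines and 1281 and 1119 reads in the knockout lines. Pooled over its lines, the knockout group was at least 385-fold and 336-fold higher against a floor of 3 reads over the WT group. These values are no bounds for single knockout lines. Dmkn (edgeR adjusted p = 0.00013) and Sbsn (edgeR adjusted p = 0.0014), 2 secreted proteins of the upper epidermis, had every knockout line above every WT line as well. Abca12, Ivl and Sprr1a rose too. Of the listed genes in the table that were not tested, Krt1 had 205 reads in the knockout group and 7 in the WT group, and Alox12b 77 and 4. Klk5 went the other way, with 35 reads in the knockout group and 391 in the WT group, 360 of them in 1 line. Lce1a1 had 7 and 3 reads, and Flg2 had 0 in both groups.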

How the data were processed

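The authors deposited expected counts per gene made with RSEM after trimming with cutadapt, and TPM, scaled for transcript length, for the same lines, per the submitters' processing notes, which name the builds mm10 and GRCm38. Not given in the sources used here were the aligner, annotation, strand use and versions. Overlapping and antisense genes were therefore not separated. Depth was 38298600 to 46689800 expected counts per line. Expected counts were rounded, filtered with filterByExpr, scaled by TMM and compared with edgeR 4.0.16 (R 4.3.3), group as the only term, quasi-likelihood F test, Benjamini-Hochberg adjustment over all 13058 genes, threshold 0.05. The SE is approximate, taken as the log2 fold change divided by the root of the F statistic. Log2 CPM used a prior count of 2. The fit and the permutation code were tested on simulated data. Gene positions and promoter windows are from RefSeq, GRCm38.p6.

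The members and lists were chosen with earlier results of these data known. Besides the members, the text names Mapk8 and Mapk9, up to 4 called genes per list with the lowest adjusted p (the 2 with the smallest p where none was called), and the 5 genes most like Trp63 and like Grhl2. Epcam, Cdh1, Vim, Zeb1, Trp53, the further called list genes and the untested list genes given with their reads were named after their values were seen. Alternatives were DESeq2 1.42.0, limma-voom and limma on log2(TPM + 1) and log2(TPM + 0.1) (limma 3.58.1), other scalings and filters, WT replicates 4 and 5 summed, and each line left out.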

Additional observations from a re-analysis of the deposited data

Results flagged for a closer look

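In 78 groups of 1 gene and 6 or 7 lines, 19 had a line whose gap to the next exceeded Dixon's critical value, and 9 of the 19 were knockout replicate 2. Gaps were taken in CPM without logs. The WT groups of Trp73, Col17a1, Foxc2, Dmkn, Sprr1b and Krtdap are among the 78 but were too low to be flagged. For values with a normal distribution, chance flags about 1 in 20 groups of genes that were not chosen for their values. These genes were, some for following Trp63 or Grhl2 over lines in which knockout replicate 2 is extreme, so that rate does not apply to them. Among the 10 members there were 3. Trp63 was 243 CPM in knockout replicate 2, with the next line at 90.4 CPM, Ovol2 was 9.99 CPM in WT replicate 2, with the next at 5.68 CPM, and Pitx1 was 0.528 CPM in WT replicate 4, with all other WT lines at 0.

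Among the other named genes knockout replicate 2 was the high line for Krt5 (12403 CPM), Krt14 (8337 CPM), Col17a1 (1535 CPM), Lima1 (588 CPM), Foxc2 (53.5 CPM) and Bcl11b (15.2 CPM). It was the low line for Acp5 (1.96 CPM) and Grb7 (3.85 CPM). Tgm1 was high in knockout replicate 1 (91.2 CPM), Klf12 in knockout replicate 3 (0.577 CPM), and Mapk9 was low in knockout replicate 5 (8.90 CPM). Among WT lines Mapk9 was high in replicate 2 (73.1 CPM), Bcl11b in replicate 3 (0.620 CPM), Grb7 and Robo1 in replicate 5 (58.8 and 30.6 CPM), and Klf12 was low in replicate 5 (0.632 CPM).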

How the results depend on the processing

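No paired analysis was possible because the labels give no pairing between WT and knockout lines. The replicate numbers used here follow the order of the samples within each group. Limma-voom did not call Trp63, and the other alternatives called Trp63, Grhl3 and Pitx1. The members were chosen on this contrast, so calls kept under other settings are no support for them. The members called higher were 3 to 5 with 1 line left out, 6 with DESeq2 (also Klf5, Grhl1 and Zfp750) and 5 without WT replicate 3 and knockout replicate 2 together, a fit chosen after seeing the data. Over all genes 566 were higher and 545 lower, against 1130 and 977 with DESeq2, 286 and 998 on log2(TPM + 1), 322 and 981 on log2(TPM + 0.1), and 324 to 649 and 316 to 592 with 1 line left out. The TPM scale moved the median log2 fold change of all genes to -0.19 (pseudocount 1) and -0.23 (0.1), relative to which TPM results are read. The late epidermal median was 1.41 on log2(TPM + 1), that of p63 targets 0.33 and that of grainyhead-like targets -0.87. The mesenchymal median was -0.89 there, -0.44 with DESeq2 and -0.74 with limma-voom, and that of other epithelial factors -0.03 with CPM above 1 in at least 6 lines.

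Of the relatives, 0 to 1 rose with 1 line left out, 2 without a filter, 0 with CPM above 1 in at least 6 lines or log2(TPM + 1), and 1 and 4 fell with that stricter filter and with DESeq2. Of the other epithelial factors 1 to 5 rose and 0 to 2 fell with 1 line left out. There 1 rose with the stricter filter or log2(TPM + 1), 4 on log2(TPM + 0.1) and 8 with DESeq2, and 2 fell with DESeq2 or without both lines, 0 with limma-voom and 3 on either TPM scale. Of p63 targets 3 rose with limma-voom, which did not call Krt5 (adjusted p = 0.053) or Col17a1 (adjusted p = 0.13), and 2 fell with DESeq2 and on either TPM scale, and 1 to 2 with 1 line left out. Of grainyhead-like targets 1 rose with upper-quartile scaling, with DESeq2 and without both lines, and 0 to 1 with 1 line left out. Of mesenchymal genes 1 to 2 rose and 0 to 1 fell with 1 line left out, 2 rose and 1 fell with DESeq2, 0 and 2 with limma-voom, 0 and 1 on either TPM scale, and 1 fell without both lines. The 4 pairs of members that passed became 0 with any 1 line left out, where their adjusted p in exact permutation tests ran from 0.05 to 0.11. With 6 lines a lone pair at the smallest possible p has an adjusted p of 0.05, so it could not pass, while several such pairs together could. Uncalled values that changed sign were Galnt3 (0.12 without both lines), Grb7 (-0.13 to 0.16 with 1 line left out, positive without WT replicate 5, 0.085, and without knockout replicate 2, and 0.13 without both lines) and Acp5 (-0.17 with limma-voom, -0.36 and -0.41 on the TPM scales, and -0.088 to 0.29 with 1 line left out, negative without WT replicate 1 and, at -0.024, without knockout replicate 7). The cause was not tested.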
